A study of Homo sapiens with 8 samples.

Results

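Keratins are the intermediate filament proteins of epithelial cells, and the transcripts of 10 of them were followed in Panc 10.05, a human cell line that was derived from a ductal adenocarcinoma of the pancreas. The 10 genes (KRT6A, KRT7, KRT8, KRT10, KRT15, KRT17, KRT18, KRT19, KRT80 and KRT81) were taken by symbol from a table of 58870 gene rows. The table also held 45 other keratin genes and 147 keratin pseudogenes. RNA sequencing had been performed on 8 libraries of this line. Of these, 4 were labelled as control cells and 4 as cells overexpressing ELAPOR1, an endosome and lysosome associated protein. The labels name no other treatment for either group. How ELAPOR1 was overexpressed and whether the control cells carried an empty vector are not given in the sources used here. Whether either group was a clone or a pool, and whether replicates were separate cultures, is not given either. The p-values therefore measure only the spread between these libraries, which may be technical. The title of the series concerns ELAPOR1 and the classical/progenitor subtype of pancreatic cancer.

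Keratin filaments form from pairs of one acidic (type I) and one basic or neutral (type II) protein, so that a cell needs both types. KRT8 and KRT18 are the pair of simple epithelia, and KRT7 and KRT19 are added in ducts, including those of the pancreas. KRT6A and KRT17 are induced in stressed or basal epithelium, KRT15 belongs to basal cells, and KRT81 is a hair keratin that has been used as a marker of the quasi-mesenchymal subtype of this cancer. KRT6A, KRT7, KRT15 and KRT17 also stand in a published basal-like list for this cancer. The type II genes and KRT18 lie together on chromosome 12 (6 members, 52168996 to 52952901 in GRCh38) and the other type I genes on chromosome 17 (4 members, 40818117 to 41624842).

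Because members of this family resemble each other, coding stretches of 2 pairs are shown, chosen as the most similar 60 bases within 1 exon of each. They come from the principal GENCODE 29 transcripts, are written 5′ to 3′ on the gene's own strand, and capitals mark the bases that differ between the members of a pair. The first pair is KRT18 and KRT19, type I genes that moved in opposite directions. The second, KRT81 and its neighbour KRT86, had no differing base here.
KRT18: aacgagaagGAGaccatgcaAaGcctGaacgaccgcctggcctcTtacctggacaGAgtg
KRT19: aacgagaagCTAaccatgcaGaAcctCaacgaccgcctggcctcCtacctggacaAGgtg
KRT81: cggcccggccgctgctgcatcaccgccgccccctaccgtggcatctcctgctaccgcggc
KRT86: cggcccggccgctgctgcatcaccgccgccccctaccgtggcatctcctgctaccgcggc

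The KRT18 stretch is chr12:52949408-52949467 (plus strand, exon 1) and that of KRT19 is chr17:41527954-41528013 (minus strand, exon 1). KRT81 was read at chr12:52291346-52291405 (minus strand, exon 1) and KRT86 at chr12:52301977-52302036 (plus strand, exon 3). Over the whole aligned coding sequence KRT8 and KRT7 were identical at 72.0% of positions, KRT18 and KRT19 at 61.5%, and KRT81 and KRT86 at 93.6%. Of all stretches of 75 bases in the principal transcript, 36.6% in KRT81 also occurred, on either strand, in another gene, mostly KRT86. The share was 25.5% for KRT18, where 293 of 1488 stretches lie in long KRT8 transcripts read from the opposite strand, and 18.7% for KRT8, where the pseudogene KRT8P3 held 190 of the 384 shared stretches. For KRT7 it was 9.05% (all in KRT7-AS, an antisense gene), for KRT6A 26.2% and for KRT17 4.57%. KRT10, KRT15, KRT19 and KRT80 had no such stretch. Whether counting used strand is not given in the sources used here. Reads in the overlap of KRT8 and KRT18 could therefore have been assigned to either gene. KRT81 and KRT86 share stretches on their own strands, so reads of these could have been assigned to either gene with or without use of strand.

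Library totals ranged from 13765509 to 18128757 counts. ELAPOR1, listed as KIAA1324, was at 1, 1, 4 and 4 counts in control and at 7006, 6422, 5910 and 7368 counts in ELAPOR1 libraries, so the libraries matched their labels. The label of an epithelial line was matched as well, with all 5 epithelial markers tested and EPCAM at 634 ± 10.6 CPM in control and 623 ± 16.2 CPM in ELAPOR1 libraries (n = 4 per group, SD; CPM, counts per 1000000 counts, after TMM scaling). Of these 5 markers CDH1 was called higher, CLDN4, CLDN7 and ESRP1 lower, and the summed list was at 2053 to 2138 CPM in control and 1841 to 1891 CPM in ELAPOR1 libraries. Of the duct markers, CFTR had at most 3 counts in a library, while SOX9 was called higher and MUC1 lower. Acinar markers were at 0 in 4 of 5 genes, and the summed fibroblast markers stayed between 2.77 and 4.38 CPM in all libraries, with COL1A2, DCN and LUM at 0. Among leukocyte markers, CD3E was at 0 and PTPRC had at most 1 count, while CD68, also a lysosomal gene, gave nearly all of the list's 72.6 to 87.8 CPM. Of the endothelial markers, CDH5 was at 0 and the summed list was at 1.61 to 1.95 CPM in control and 0.576 to 0.865 CPM in ELAPOR1 libraries. Whether these lower sums of epithelial, leukocyte and endothelial markers had a part in the keratin values was not tested.

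KRT8 and KRT18 were far above the other members. On a per-length scale (TPM, transcripts per 1000000 transcripts, from the length of the principal transcript), KRT18 was the highest member in control at 6643 ± 210.0 TPM, followed by KRT8 at 5571 ± 163 TPM (SD, n = 4 for each value here). KRT7 was at 1398 ± 47.2 TPM and KRT19 at 749 ± 36.8 TPM. KRT80, a widely expressed type II keratin, was at 80.6 ± 0.562 TPM. The other members were low, with KRT10 at 10.1 ± 0.771, KRT17 at 3.85 ± 0.638, KRT15 at 3.53 ± 0.312 and KRT81 at 0.762 ± 0.220 TPM. Neighbours in this order did not overlap between libraries, except KRT17 and KRT15. With no division by length KRT8 stood above KRT18 in both groups. The place of KRT15 also rests on its annotated principal transcript, which at 5237 bases is far longer than that of KRT17 at 1517 bases; in CPM, KRT15 at 8.36 ± 0.780 was above KRT17 at 2.64 ± 0.461 in control. In ELAPOR1 libraries the per-length order of the first 7 was the same, and KRT81 at 3.04 ± 0.978 TPM then stood above KRT15 at 2.25 ± 0.269 TPM, with overlap between KRT17 and KRT81 and between KRT81 and KRT15.

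**Figure D1:**
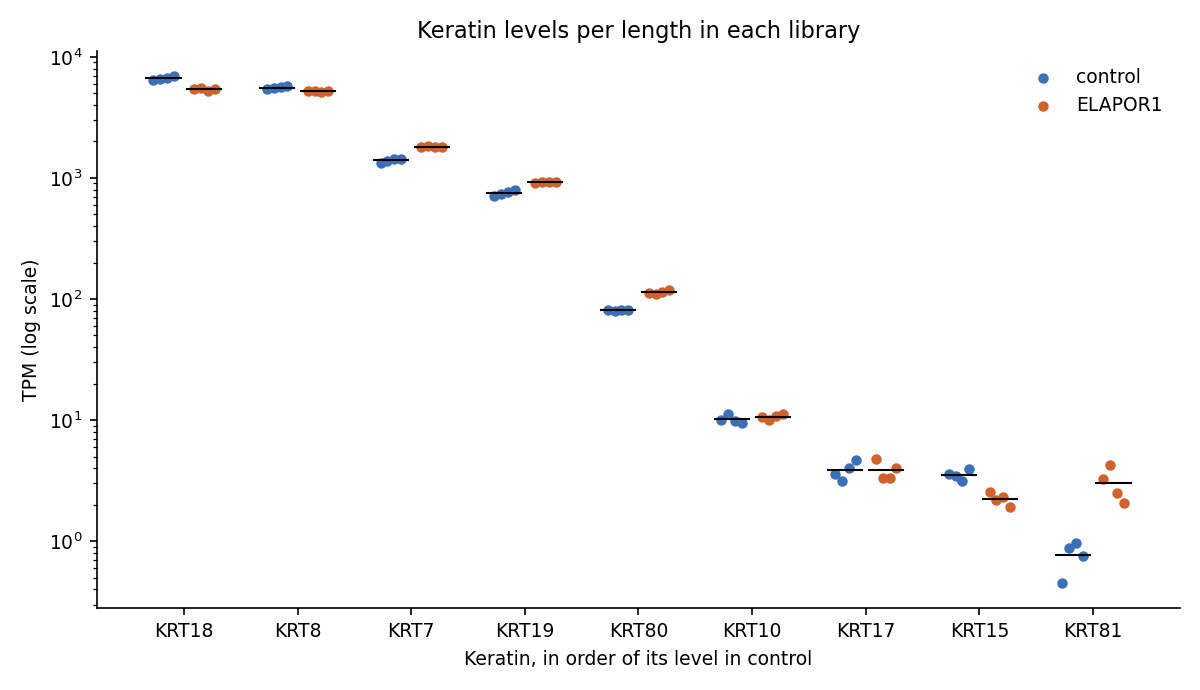
TPM (log axis) of 9 keratins in the 8 libraries, 4 points per group with a line at the mean; KRT6A, at 0 in every library, cannot be drawn on this axis. KRT18 and KRT8 lie lower and KRT7, KRT19, KRT80 and KRT81 higher in ELAPOR1 than in control libraries.

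KRT6A was not detected. It had 0 counts in each of the 8 libraries, which allows at most 0.166 to 0.216 CPM per library (3 counts, counting error only). It was therefore the only member that did not pass the filter on low counts and was not tested.

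In ELAPOR1 cells the simple keratins KRT8 and KRT18 and the basal keratin KRT15 fell, while the ductal keratins KRT7 and KRT19, KRT80 and KRT81 rose. Of 9 members tested, 7 were called at an adjusted p-value under 0.05 by edgeR's quasi-likelihood test, 4 higher and 3 lower, against 44.7% of all 13860 genes tested (22.6% higher, 22.1% lower). In CPM, these 7 members had no overlap between control and ELAPOR1 libraries, against 39.3% of all genes tested. The median log2 fold change of the tested members was 0.01 and that of all genes 7.6e-04. Over all called genes, the median change irrespective of sign was 0.28 in log2 units, and among the members KRT81, KRT15, KRT80, KRT18 and KRT7 exceeded it. Against a 1.5-fold change, only KRT81 was called.

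KRT18 (ENSG00000111057.11, chr12:52948871-52952901, plus strand) had the largest fall among the well expressed members. It stood at 4440, 4666, 4697 and 4963 CPM in control libraries 1 to 4 and at 3724, 3729, 3553 and 3641 CPM in ELAPOR1 libraries 1 to 4. All control libraries were above all ELAPOR1 libraries, with control replicate 1 the lowest of the controls. By edgeR the change was -0.36 in log2 units (SE 0.0282; adjusted p = 2.2e-12), so that CPM fell by 21.9%.

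KRT8 (ENSG00000170421.12, chr12:52897187-52949954, minus strand), its type II partner, fell by less. Its values were 5043, 5350, 5416 and 5613 CPM in control and 4835, 4845, 4665 and 4796 CPM in ELAPOR1 libraries. The groups did not overlap, but control replicate 1 came close to the ELAPOR1 libraries. The edgeR fit gave -0.16 in log2 units (SE 0.0275; adjusted p = 9.3e-06), so that CPM fell by 10.6%. Since this is bulk RNA, fewer cells with a transcript and less of it per cell cannot be told apart.

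KRT7 (ENSG00000135480.16, chr12:52232520-52252186, plus strand), the type II keratin of ducts, was at 1034, 1109, 1133 and 1159 CPM in control and at 1382, 1397, 1371 and 1367 CPM in ELAPOR1 libraries. Every ELAPOR1 library was above every control library, and the ELAPOR1 libraries lay within a narrow range. By edgeR the change was 0.31 in log2 units (SE 0.0291; adjusted p = 6.5e-11), a rise by 24.4%.

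KRT19 (ENSG00000171345.13, chr17:41523617-41528308, minus strand), a small type I keratin whose soluble fragments are measured in serum of patients with carcinoma, moved in the same direction. It was at 436, 462, 482 and 505 CPM in control and at 553, 562, 557 and 562 CPM in ELAPOR1 libraries. The groups did not overlap. KRT19 changed by 0.25 in log2 units (edgeR, SE 0.0332; adjusted p = 3.4e-07), a rise by 18.6%. Among 10695 other tested genes averaging 5 CPM or more, MED29 (Pearson r 0.997), LRRC61 (r 0.990) and TSN (r 0.990) were most like KRT19 across the 8 libraries on the log2(CPM + 1) scale. The r describes libraries that fall into 2 groups, and 562 genes had an r above 0.9.

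KRT80 (ENSG00000167767.14, chr12:52168996-52192000, minus strand) rose most among the well expressed members. It stood at 137, 141, 142 and 143 CPM in control and at 190, 185, 192 and 197 CPM in ELAPOR1 libraries. The spread was small in both groups, and the gap between them was many times that spread. By edgeR the change was 0.44 in log2 units (SE 0.0331; adjusted p = 4.2e-13), a rise by 35.9%.

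KRT81 (ENSG00000205426.10, chr12:52285913-52291534, minus strand, within the span of KRT86) had the largest fold change of the members and rests on few counts. It held 7, 13, 14 and 11 counts in control and 45, 54, 29 and 30 counts in ELAPOR1 libraries, which is 0.666 ± 0.198 and 2.54 ± 0.820 CPM (n = 4 per group, SD). The groups did not overlap, and ELAPOR1 replicates 1 and 2 were the highest. By edgeR the change was 1.92 in log2 units (SE 0.307; adjusted p = 3.6e-06), or 3.80-fold. KRT86, whose coding sequence is nearly identical, held 15, 9, 16 and 9.02 estimated counts in control and 8, 24, 13 and 20 counts in ELAPOR1 libraries. It was not called by edgeR (0.53 in log2 units, SE 0.366; adjusted p = 0.25). With the counts of both merged into 1 row, the change by edgeR was 1.37 in log2 units (adjusted p = 1.2e-05).

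KRT15 (ENSG00000171346.16, chr17:41513743-41522529, minus strand) fell at a low level. Its counts were 150, 140, 125 and 154 in control and 95, 75, 73 and 75 in ELAPOR1 libraries, or 8.36 ± 0.780 and 5.10 ± 0.624 CPM (n = 4 per group, SD). No ELAPOR1 library reached the lowest control library. By edgeR the change was -0.71 in log2 units (SE 0.128; adjusted p = 2.1e-05), so that CPM fell by 39.1%.

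KRT10 and KRT17 were not called. KRT10, a keratin of the differentiated epidermis, was at 9.74 ± 0.763 CPM in control and 9.83 ± 0.445 CPM in ELAPOR1 libraries, with a log2 difference between -0.18 and 0.21 (95% interval; edgeR adjusted p = 0.92). KRT17 was at 2.64 ± 0.461 and 2.53 ± 0.456 CPM, and its interval was wider, from -0.46 to 0.36 (edgeR adjusted p = 0.87; n = 4 per group, SD). The groups overlapped for both, and for KRT17 a change of up to about the size of that of KRT18 lies within the interval.

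**Figure D2:**
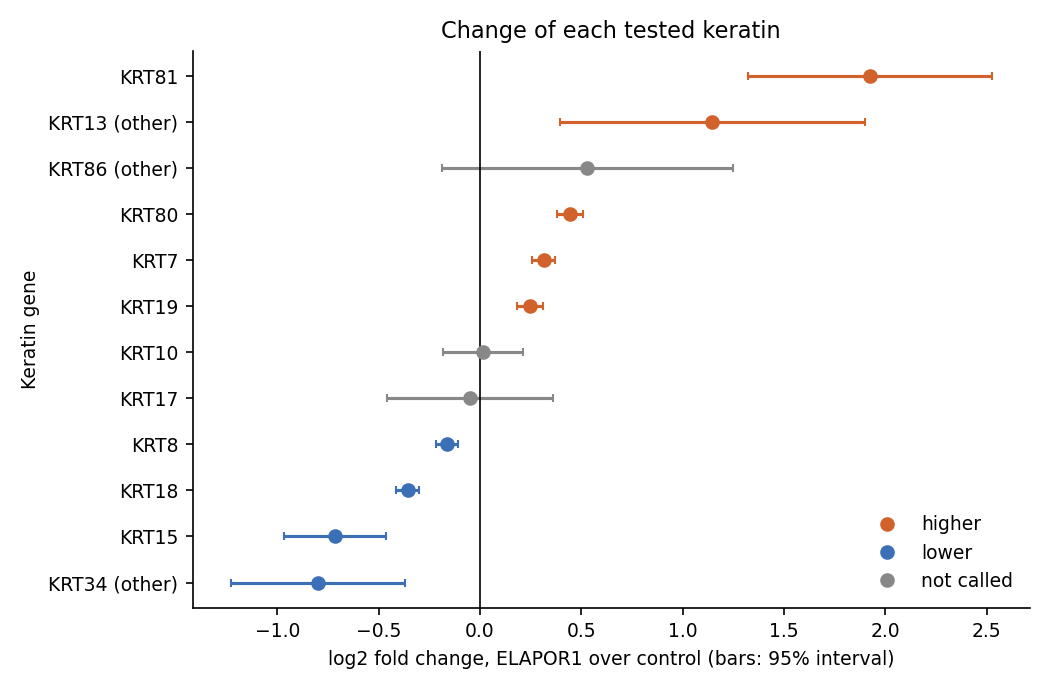
Log2 fold change of ELAPOR1 over control for the 9 tested members and the 3 other keratins tested, with bars of the 95% interval, coloured by the edgeR call. KRT81 is highest at 1.92 and KRT34 lowest at -0.80, and the bars are narrow only for the well expressed KRT7, KRT8, KRT18, KRT19 and KRT80.

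Of the 45 other keratins, 31 had no count in any library and 3 were tested. KRT34, a type I hair keratin, was at 53, 59, 46 and 48 counts in control and at 30, 22, 32 and 24 counts in ELAPOR1 libraries, with no overlap after scaling. By edgeR it fell by 0.80 in log2 units (SE 0.220; adjusted p = 3.2e-03). KRT13, a keratin of stratified mucosa, was at 16, 11, 6 and 6 counts in control and at 24, 7, 21 and 28 counts in ELAPOR1 libraries. By edgeR it rose by 1.15 in log2 units (SE 0.384; adjusted p = 0.015), but the groups overlapped, and the call was lost without control replicate 3 (adjusted p = 0.059), ELAPOR1 replicate 1 (0.050) or ELAPOR1 replicate 4 (0.066). KRT86 is given above. The 11 keratins that were detected but not tested never had more than 10 counts in a library, KRT14 and KRT16 among them. Counts of the 50 KRT8 pseudogene rows amounted to 0.836 to 1.06% of the KRT8 counts, and those of the 67 KRT18 rows to 0.0183 to 0.0477% of the KRT18 counts.

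The make-up of the keratin transcripts followed from these changes. Here each keratin's per-length level was divided by the sum over all keratin genes of the same library, which removes any difference that all keratins share. KRT18 took 46.1, 45.8, 45.6 and 46.1% of keratin transcripts in control and 40.4, 40.3, 39.8 and 39.97% in ELAPOR1 libraries. KRT8 stayed at 38.5% in both groups (SD 0.146 and 0.118 percentage points, n = 4 each), and its libraries overlapped. KRT7 went from 9.66 ± 0.105 to 13.5 ± 0.158% and KRT19 from 5.18 ± 0.0987 to 6.88 ± 0.124% (n = 4 per group, SD). KRT8 and KRT18 together therefore took 84.4 ± 0.149% in control and 78.6 ± 0.285% in ELAPOR1 libraries, and KRT7 and KRT19 together 14.8 ± 0.164% and 20.3 ± 0.265%. For each of these sums the groups did not overlap. KRT80 made up 0.558 ± 0.0150% and 0.848 ± 0.0316%, and the remaining members were each under the level of KRT80.

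**Figure D3:**
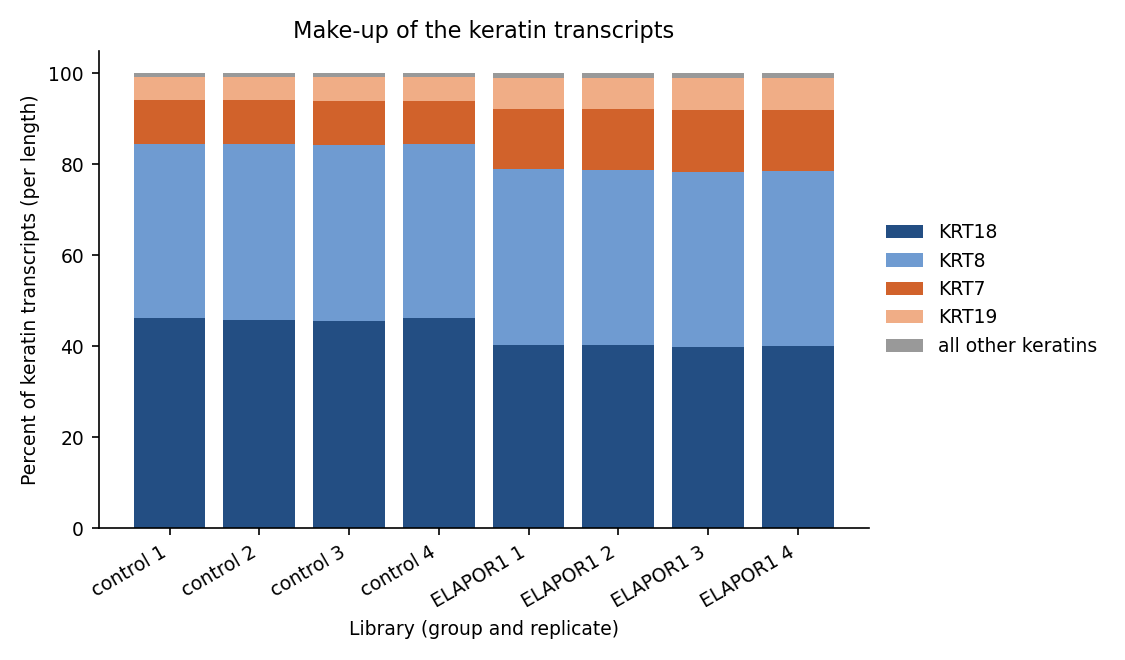
Stacked bars of the percent of keratin transcripts, per length, taken by KRT18, KRT8, KRT7, KRT19 and all other keratins in each of the 8 libraries. The KRT18 part is smaller in all ELAPOR1 libraries (39.8 to 40.4%) than in all control libraries (45.6 to 46.1%), and the KRT7 and KRT19 parts are larger.

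The balance of both types of keratin shifted as well. Type II genes made up 48.6, 48.9, 49.0 and 48.5% of keratin transcripts in control and 52.7, 52.8, 53.0 and 52.9% in ELAPOR1 libraries. The ratio of KRT8 to KRT18 was 0.839 ± 0.00738 in control and 0.960 ± 0.00704 in ELAPOR1 libraries (n = 4 per group, SD), with no overlap. Values of both ratio and share depend on the transcript length chosen. A length scales a gene alike in all libraries, so it cannot change the direction of the ratio. The direction of the type II share was the same with each length tried. The ratio of KRT18 to KRT19 went from 8.87 ± 0.186 to 5.84 ± 0.143 and that of KRT8 to KRT7 from 3.99 ± 0.0327 to 2.86 ± 0.0398. The ratio of KRT7 to KRT19 moved little, from 1.87 ± 0.0353 to 1.96 ± 0.0234, and its lowest ELAPOR1 library (1.93) stood close to its highest control library (1.90). No test was made on these shares and ratios, because the members were chosen with earlier results known.

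**Figure D4:**
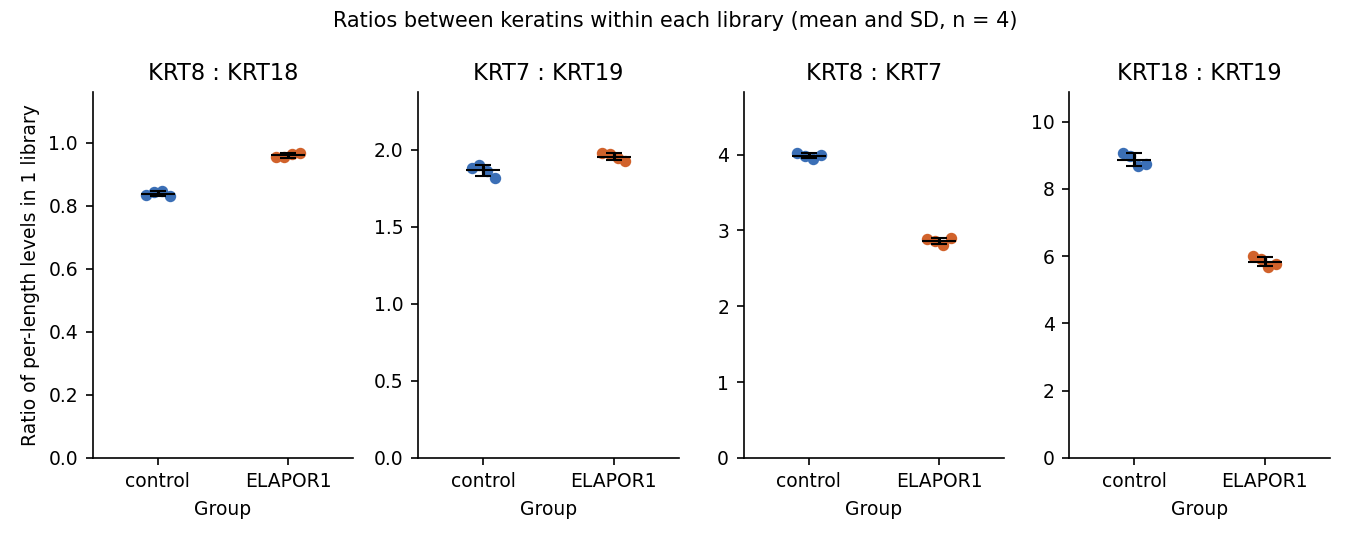
Ratios of per-length levels between keratins within each library, with points for libraries and the mean and SD of each group (n = 4); every axis starts at 0. KRT8 : KRT18 is higher and KRT8 : KRT7 and KRT18 : KRT19 are lower in ELAPOR1 libraries, and KRT7 : KRT19 differs least.

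Spread among control libraries had a pattern that was not particular to keratins. Control replicate 1 was the lowest and control replicate 4 the highest for KRT7, KRT8, KRT18 and KRT19 alike, so that the control spread in CPM was 4.42 to 6.25% of the mean for these 4 genes, against 0.767 to 2.26% in ELAPOR1 libraries. KRT80 had the same lowest and highest control library, with a spread of 1.93% of the mean in control and 2.61% in ELAPOR1 libraries. Outside keratins, LMNA also was lowest in control replicate 1 (651 CPM) and highest in control replicate 4 (715 CPM). For EHF (133 and 104 CPM) and DSP (598 and 535 CPM) control replicate 1 was the highest and control replicate 4 the lowest. The ratio of KRT8 to KRT7 in the control libraries stayed between 3.94 and 4.02. All keratin genes together took 1.11 to 1.23% of all counts in control and 1.05 to 1.08% in ELAPOR1 libraries. Leaving out control replicate 1 changed no member's call, with KRT8 at -0.20, and leaving out control replicate 4 gave KRT8 at -0.14.

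Of the genes that anchor or handle keratin filaments, more were called higher than lower. Of 26 genes of desmosomes, hemidesmosomes and keratin linkers, 20 were tested, 10 were called higher and 4 lower (70.0% in all, against 44.7% of all genes tested), and the median over the tested genes was 0.10 in log2 units, against 7.6e-04 over all genes. PLEC (plectin, which links keratins to hemidesmosomes and actin) was at 1919, 1811, 1879 and 1767 CPM in control and at 2187, 2307, 2327 and 2330 CPM in ELAPOR1 libraries, without overlap (edgeR, 0.31 in log2 units, SE 0.0282; adjusted p = 4.2e-11). JUP (plakoglobin of the desmosomal plaque) rose from 189 ± 10.8 to 251 ± 3.12 CPM (by 0.41 log2 units in edgeR, adjusted p = 6.9e-12) and COL17A1 (a hemidesmosomal collagen) from 20.2 ± 1.64 to 26.1 ± 1.51 CPM (0.37, adjusted p = 7.2e-05; n = 4 per group, SD). DSP (desmoplakin, which binds keratins in desmosomes) was at 567 ± 25.9 and 583 ± 13.7 CPM and was not called (edgeR adjusted p = 0.30). The largest change in the list was a fall. KLHL24, which brings keratins to a ubiquitin ligase, was at 38.4, 40.1, 40.3 and 40.6 CPM in control and at 19.3, 20.2, 19.1 and 17.7 CPM in ELAPOR1 libraries (edgeR, -1.07 in log2 units, SE 0.0628; adjusted p = 1.1e-15).

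Other intermediate filament genes were tested in 6 of 15 cases, and 5 were called (83.3%), all higher, against 22.6% of all genes tested called higher, with a median of 0.32 in log2 units. LMNA (lamin A/C of the nuclear lamina) rose from 692 ± 28.7 to 820 ± 14.8 CPM (by 0.24 log2 units in edgeR, adjusted p = 1.7e-08) and LMNB2 from 548 ± 6.09 to 718 ± 20.6 CPM (0.39, adjusted p = 1.2e-13; n = 4 per group, SD). NES (nestin, a filament of progenitor and proliferating cells) had 1.35 ± 0.152 CPM in control and 5.52, 5.99, 5.54 and 6.69 CPM in ELAPOR1 libraries (edgeR, 2.13 in log2 units, SE 0.186; adjusted p = 1.9e-11). SYNM (synemin) rose by 0.74 (edgeR adjusted p = 2.1e-06). VIM (vimentin, the filament of mesenchymal cells) was nearly absent, with 3, 0, 5 and 3 counts in control and 6, 11, 6 and 6 counts in ELAPOR1 libraries, and was not tested.

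Epithelial transcription factors, listed together with the splicing regulators ESRP1 and ESRP2, were called in 7 of 16 cases tested (43.8%, against 44.7% of all genes). Of these 7, 3 were higher and 4 lower, and the median over the tested genes was -0.08 in log2 units. Both splicing regulators are among the 7, ESRP1 lower (-0.23, edgeR adjusted p = 4.8e-08) and ESRP2 higher (0.18, adjusted p = 1.3e-04). ELF3 (an epithelial ETS factor) fell from 86.5 ± 5.62 to 55.8 ± 2.56 CPM (-0.63 log2 units in edgeR, adjusted p = 7.4e-13). TFAP2C changed by -0.43 (edgeR adjusted p = 1.2e-03) and TFAP2A by -0.37 (adjusted p = 1.0e-05), both AP-2 factors. SOX9, the duct factor, rose from 61.8 ± 1.88 to 81.9 ± 3.65 CPM (by 0.41 log2 units in edgeR, adjusted p = 2.4e-09; n = 4 per group, SD). GRHL2 (log2 fold change -0.07, edgeR adjusted p = 0.21) and KLF4 (-0.00145, adjusted p = 0.98) were not called, and TP63, which drives basal keratins, had at most 4 counts in a library.

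**Figure D5:**
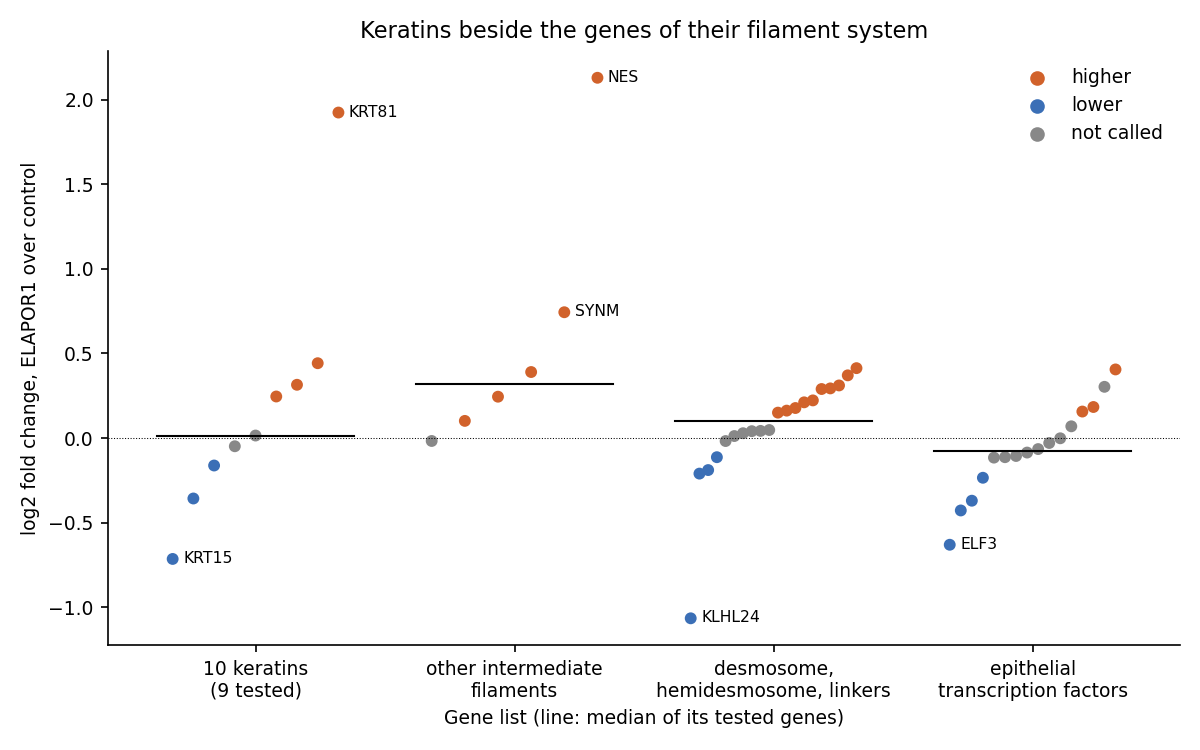
Log2 fold changes of tested genes in the keratin members and 3 related lists, each point 1 gene coloured by its edgeR call and each line a list's median; genes beyond 0.6 that the naming rule takes are labelled. NES at 2.13 and KRT81 at 1.92 are the highest and KLHL24 at -1.07 the lowest.

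Position on the chromosome was described last. Among 35 tested genes other than keratins within 1000000 bases of the chromosome 12 members, 15 were called lower (42.9%) and 5 higher (14.3%), against 22.1% lower and 22.6% higher over all genes tested, and their median change was -0.12 in log2 units, while KRT80, KRT7 and KRT81 in the same stretch rose. Around the chromosome 17 members, 22 of 49 were called higher (44.9%) and 5 lower (10.2%), against the same shares over all genes, with a median of 0.13, while KRT15 between KRT10 and KRT19 fell. Whether these neighbours had a part in the change of any keratin was not tested.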

How the data were processed

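RNA sequencing counts of 8 Panc 10.05 libraries were used. The authors deposited 1 table of expected counts (estimated counts per gene), unscaled, 1 column per library. The submitters' processing notes name cutadapt, STAR, RSEM and DESeq2 and the build hg38, without versions. Strand use is not given in the sources used here. Of nonzero values, 15.0% were not whole, and all were rounded for testing. Every column was used and no row lacked a gene.

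Genes passing filterByExpr (13860) were scaled by TMM and compared with edgeR 4.0.16 in R 4.3.3 (robust quasi-likelihood test, two-sided, no covariate, Benjamini-Hochberg adjustment over all tested genes, called under 0.05). The SE is the log2 fold change over the square root of F. CPM and TPM were computed from the counts, TPM with principal transcript lengths of GENCODE 29 (Biopython 1.88 for alignments, matplotlib 3.10.9 for plots). The union of exons had been planned as length. It was replaced because long KRT8 transcripts lengthen it (6881 bases, against 2126 in the principal transcript), and is an alternative. How common these long transcripts are was not measured. Intervals cover replicate spread.

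Members and lists were chosen with earlier results of these data known. All members are named. Of other keratins those tested are named, and of each list the 4 called genes with the largest change; DSP, VIM, GRHL2, KLF4, TP63, EPCAM, KRT14 and KRT16 were added after their values were seen. The edgeR fit was also run on counts simulated with dispersions that edgeR estimated from these data. Such counts follow the model of the fit, so they cannot check its error rate on the real libraries. Alternatives were DESeq2 1.42.0 (size factors, and the Wald test), total count and upper-quartile scaling, other filters, a replicate block, each library left out, a test against a 1.5-fold change, and other lengths. Removal of GC and length trends (splines, 5 degrees of freedom), merging KRT81 with KRT86, and fitting pseudogene counts with their parents were added after seeing the data. Some genes and sequences are not reported here.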

Additional observations from a re-analysis of the deposited data

Results flagged for a closer look

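Single libraries that stood apart from the other 3 of their group, by a gap to the nearest that took most of the group's range (Dixon's 95% limit), were found in 4 of 84 groups of 4 examined, and chance flags about 1 in 20 groups, here 4.2. No keratin member was among them. KRT13 was at 0.466 CPM in ELAPOR1 replicate 2, with 1.47 CPM the next lowest. SYNM was at 11.1 CPM in ELAPOR1 replicate 3, with 9.65 CPM the next highest. PLEC was at 2187 CPM in ELAPOR1 replicate 1, with 2307 CPM the next lowest. TFAP2A was at 32.8 CPM in control replicate 2, with 31.2 CPM the next highest control library.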

How the results depend on the processing

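The calls of 4 members higher and 3 lower were the same in number under all alternatives run except 2: a 1.5-fold threshold in the test left 1 higher and 0 lower, and the filter of at least 10 counts in every library, under which KRT81 could not be tested, left 3 higher and 3 lower; leaving out each library in turn gave 4 to 4 higher and 3 to 3 lower. KRT10, not called, changed sign without control replicate 1 (-0.00694), control replicate 4 (-0.0134) or ELAPOR1 replicate 4 (-0.0103), and over all single libraries left out it ranged up to 0.0708. KRT17, not called, changed sign without control replicate 4 (0.0615), ELAPOR1 replicate 2 (0.0147) or ELAPOR1 replicate 3 (0.0175), and with GC and length trends removed (0.0130); without ELAPOR1 replicate 1 it was lowest, at -0.166. With those trends removed KRT7 was at 0.41 and KRT19 at 0.35. The change of the KRT8 plus KRT18 share was -6.87 percentage points with union exon length, -6.89 with the longest transcript and -5.51 with no division by length. The type II share changed by 4.43 points with union exon length. The KRT8 to KRT18 ratio changed by 0.0773 with union exon length and by 0.165 with no division by length, and the KRT18 to KRT19 ratio by -2.48, -2.27 and -3.41 with union, longest and no length. These moves follow from the lengths used. Without single libraries these 4 measures changed by -5.89 to -5.67 points, 4.01 to 4.19 points, 0.119 to 0.124 and -3.10 to -2.97.

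Replicate numbers are shared by the groups, but deviations of same-numbered libraries were not correlated (r from -0.0235 to 0.0356). No pairing by number was therefore seen, although the labels do not say what the numbers mean and a low r cannot exclude a shared preparation. With the replicate number as a block, 5926 genes were called in place of 6193, with 4 members higher and 3 lower, and KRT8 was at -0.16 (adjusted p = 1.9e-04). Only the libraries numbered 3 correlated best with their own number in the other group. For KRT81, KRT17, KRT13, KRT34 and KRT86, under 60 counts per library limit the precision.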
